A study of Mus musculus with 4 samples.

Results

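Familial amyotrophic lateral sclerosis (ALS) is a paralytic disease of motor neurons that is caused by mutation of single genes. This account follows 7 of these genes, Sod1, Tardbp, Vapb, Optn, Vcp, Fig4 and Matr3, in RNA from motor neurons of the mouse spinal cord, out of 27189 gene rows in the table. They were taken by gene symbol, each symbol had 1 row, and all 7 passed the filter on low values. The samples were 4 RNA-seq libraries from mice of a mixed C57BL/6J x SJL/J background at 3 months of age, each from large ventral horn cell bodies cut out by laser from 1 animal. The 2 wild-type libraries came from strain 592, which carries a transgene for normal human SOD1 fused to yellow fluorescent protein (SOD1-YFP). The 2 G85R libraries came from strain 737, which carries the same fusion with the ALS mutation G85R in SOD1. Both transgenes are genomic fragments of the human gene, so both groups express human SOD1-YFP on top of the mouse Sod1 gene. The G85R strain carries many more copies, homozygous at an insertion on mouse chromosome 4, and mutation, copy number and strain cannot be told apart. G85R mice become paralyzed later in life, wild-type transgenic mice do not, and G85R cells with large bright aggregates were left out of the capture. The comparison asks whether the RNA of the other ALS genes, and of mouse Sod1 itself, differs in motor neurons that carry mutant SOD1.

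The proteins of these genes belong to a few cellular systems. Sod1 is the copper and zinc enzyme that removes superoxide in the cytosol, and its ALS mutations make it misfold. Tardbp encodes TDP-43 and Matr3 encodes matrin 3, both nuclear RNA-binding proteins, and TDP-43 leaves the nucleus and aggregates in most patients. Vcp is the ATPase that pulls ubiquitinated proteins out of complexes and membranes, and Optn is an autophagy receptor that ties ubiquitinated cargo to the forming autophagosome. Vapb is an endoplasmic reticulum membrane protein that holds lipid-transfer proteins at contacts with other organelles, and Fig4 is a phosphatase for the endosomal lipid phosphatidylinositol bisphosphate, held in a complex with Vac14 and the kinase that makes this lipid.

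Levels are given as RPKM, read density per kilobase of gene model scaled to the uniquely mapped reads of each library. The scaling by length lets levels of different genes be set side by side. It does not correct for reads that also match another place in the genome. Estimated reads on genes were between 21560318 and 25186594 in each library, and between 1470 and 11818 reads stood behind each RPKM of the 7 genes. All 8 motor neuron markers examined, with Chat for acetylcholine synthesis among them, were above 0 in every library, with a summed RPKM of 1696 to 2022 in wild-type and 1503 to 1799 in G85R. The log2 fold change, G85R minus wild-type, was negative for 7 of them and positive for 1, with a median of -0.21. Of the 8, 3 lay lower in G85R without overlap. Among all tested genes 54.7% were negative, 23.9% lay lower without overlap, and the median was -0.02. RNA of other cells was present too. The sum over 7 astrocyte markers was 445.6 to 451.5 in wild-type and 532.0 to 621.4 in G85R, and over 7 oligodendrocyte markers 813.2 to 870.1 and 791.6 to 1037. Of the 7 astrocyte markers, 6 had a positive log2 fold change and 1, Aldh1l1, a negative one (-0.03), with a median of 0.28. Gfap, Slc1a2 and S100b, 3 of the 7, lay higher in G85R without overlap, as did 17.3% of all tested genes. Most of the astrocyte sum was S100b. Gfap, the astrocyte filament gene, stood at 11.5 and 17.1 RPKM in wild-type against 91.9 and 28.4 in G85R replicates 1 and 2. Its fold change was 3.63 (adjusted p = 0.212 from limma), with G85R replicate 1 far above the other libraries. The sums over 10 microglial markers were 17.3 to 18.5 and 19.4 to 39.5, over 5 endothelial markers 8.58 to 9.54 and 7.18 to 7.38, and over 3 red blood cell genes 1.82 to 2.10 and 10.8 to 11.5. Among the tested markers only Hbb-b1, a hemoglobin gene, had an adjusted p under 0.05 (0.0017 from limma, fold change 5.36). Every marker was above 0 in all 4 libraries except the hemoglobin gene Hba-a2, listed at 0 in 3 of them. Their part in the values below was not tested, and in bulk RNA fewer cells of a type and less RNA per cell cannot be told apart.

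Sod1 was the most abundant of the 7 transcripts. The mouse gene (Entrez Gene 20655) lies on chromosome 16 from 90220987 to 90226567, and its transcript is short, with 646 bases. Its RPKM was 96.3 and 146 in wild-type replicates 1 and 2 and 124 and 150 in G85R replicates 1 and 2. The low value was that of wild-type replicate 1, and the genotypes overlapped. The means were 121 ± 35.3 for wild-type and 137 ± 18.4 for G85R (SD, n = 2 each), and the wild-type replicates differed 1.52-fold from each other, more than the genotypes did. The fold change, G85R over wild-type, was 1.15 with a 95% interval of 0.829 to 1.60 (log2 fold change 0.20, standard error 0.20, adjusted p = 0.806 from limma). The sign rested on wild-type replicate 1, without which the log2 fold change was -0.10, while it was 0.50 without wild-type replicate 2. The table has no separate row for the human fusion RNA, and how many of its reads were counted on mouse Sod1 was not tested.

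The mouse genome holds a further source of shared reads. A stretch of 613 bases on chromosome 6, from 67155508 to 67156120, annotated as the pseudogene Gm8566, was 97.2% identical to the Sod1 transcript. Of all 75-base windows of the transcript, the length of the reads, 12.1% occurred in this copy without a mismatch and 70.6% with up to 2 mismatches.

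Copies of this kind were found for 3 of the 7 genes. The Vcp transcript had a copy of 3258 bases on the X chromosome, annotated as the pseudogene Vcp-rs. This copy was 99.0% identical, and 69.3% of the 75-base windows of Vcp matched it exactly and 90.1% with up to 2 mismatches. For Tardbp, shorter copies on chromosomes 3 and 9 matched 2.0% of windows exactly and 9.4% with up to 2 mismatches. Vapb, Optn, Fig4 and Matr3 had no copy of at least 75 bases at 95% identity. The effect of reads that match both places on the RPKM of Vcp, Sod1 and Tardbp was not tested.

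**Figure D1:**
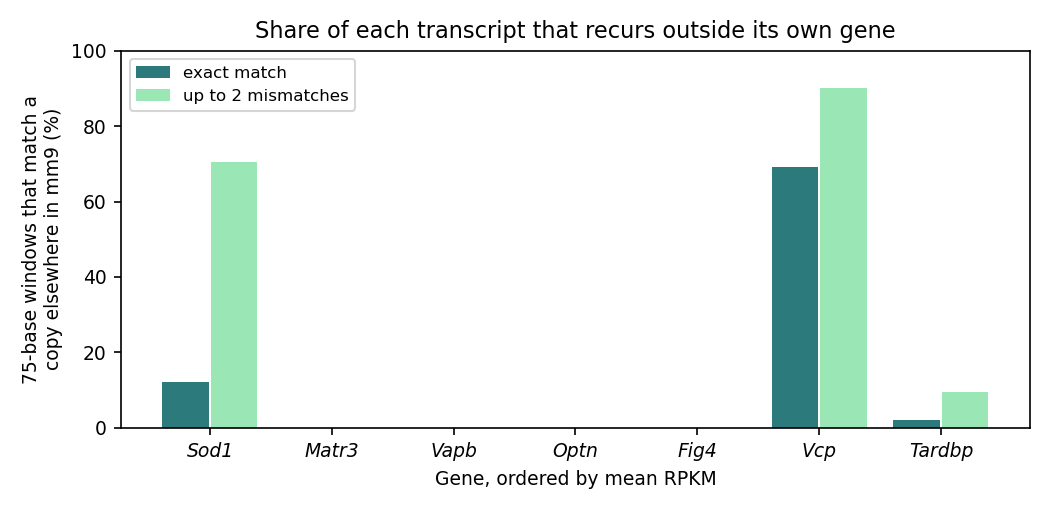
Percent of the 75-base windows of each gene's longest coding transcript that match a copy elsewhere in mm9, exactly (dark bars) or with up to 2 mismatches (light bars), with genes ordered by mean RPKM. Vcp reaches 69.3% and 90.1%, Sod1 12.1% and 70.6%, Tardbp 2.0% and 9.4%, and the other 4 genes are at 0.

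Of the RNA-binding proteins, Matr3 was abundant and Tardbp the least abundant of the 7 genes. Matr3 (Entrez Gene 17184) spans 35721812 to 35751699 of chromosome 18. The wild-type libraries had 88.4 and 73.1 RPKM, and the G85R libraries 84.4 and 76.2. Both replicates 2 lay below both replicates 1, and the means of the genotypes were nearly equal, with 80.8 ± 10.8 and 80.3 ± 5.82 (SD, n = 2 each). The fold change was 0.997, with a 95% interval of 0.811 to 1.23 (adjusted p = 0.994 from limma).

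Tardbp (Entrez Gene 230908) spans 147986491 to 148001128 of chromosome 4, minus strand. In wild-type its RPKM was 14.8 and 13.0, in G85R 14.0 and 14.4. The G85R libraries lay between the wild-type libraries. The fold change was 1.02, with a 95% interval of 0.840 to 1.24 (adjusted p = 0.964 from limma). Matr3 stood 5.30 to 6.04 times above Tardbp in the single libraries. Tardbp shares exon bases with Masp2 on the other strand, and the reads of such partners cannot be told apart without strand. The RPKM listed for Masp2 was at most 0.260 in any library. How reads on the shared bases were assigned was not tested. Vcp and Optn also share exon bases with a gene on the other strand.

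For the genes of protein quality control, the genotypes overlapped as well. Vcp (Entrez Gene 269523) spans 42992835 to 43013379 of chromosome 4, minus strand. Its RPKM was 18.2 and 17.1 in wild-type replicates 1 and 2, while the G85R replicates had 17.0 and 17.6. The lowest value was in G85R and the highest in wild-type, with the other two between them. The fold change was 0.980, with a 95% interval of 0.819 to 1.17 (adjusted p = 0.964 from limma). Vcp and Tardbp lie on the chromosome that carries the G85R transgene insertion, whose position is not given in the sources used here.

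Optn (Entrez Gene 71648) spans 4941688 to 4985097 of chromosome 2, minus strand. Wild-type libraries showed an RPKM of 31.8 and 30.1, and G85R libraries 32.1 and 25.8. The G85R libraries held both the highest and the lowest value, with means of 29.0 ± 4.47 in G85R against 30.9 ± 1.19 for wild-type (SD, n = 2 each). The fold change was 0.932, with a 95% interval of 0.749 to 1.16 (adjusted p = 0.872 from limma), and the log2 fold change was 0.056 without G85R replicate 2, the low library.

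Vapb and Fig4 were the only members whose genotypes did not overlap, with G85R below wild-type in both. Vapb (Entrez Gene 56491) spans 173563012 to 173609837 of chromosome 2, plus strand. Its RPKM was 53.7 and 54.6 in the wild-type libraries, against 47.9 and 50.8 in the G85R libraries. It rested on the most reads of the 7 genes, 8913 or more in each library. The fold change was 0.911, with a 95% interval of 0.775 to 1.07 (log2 fold change -0.13, standard error 0.10, adjusted p = 0.706 from limma).

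Fig4 (Entrez Gene 103199) spans 40907978 to 41023047 of chromosome 10, minus strand. Its RPKM was 23.1 and 24.0 in the wild-type libraries and reached 19.7 and 21.7 in the G85R libraries, so the highest G85R value lay under the lowest wild-type value. Its fold change of 0.878 was the lowest of the 7, with a 95% interval of 0.731 to 1.05 (log2 fold change -0.19, standard error 0.11, adjusted p = 0.617 from limma). With any 1 library left out the log2 fold change lay between -0.26 and -0.12, and that of Vapb between -0.18 and -0.09, where the lack of overlap fixes the sign. Libraries of different genotype did not overlap for 2 of the 7 genes (28.6%), compared with 41.2% of all tested genes, and lay lower in G85R without overlap for 23.9% of tested genes.

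**Figure D2:**
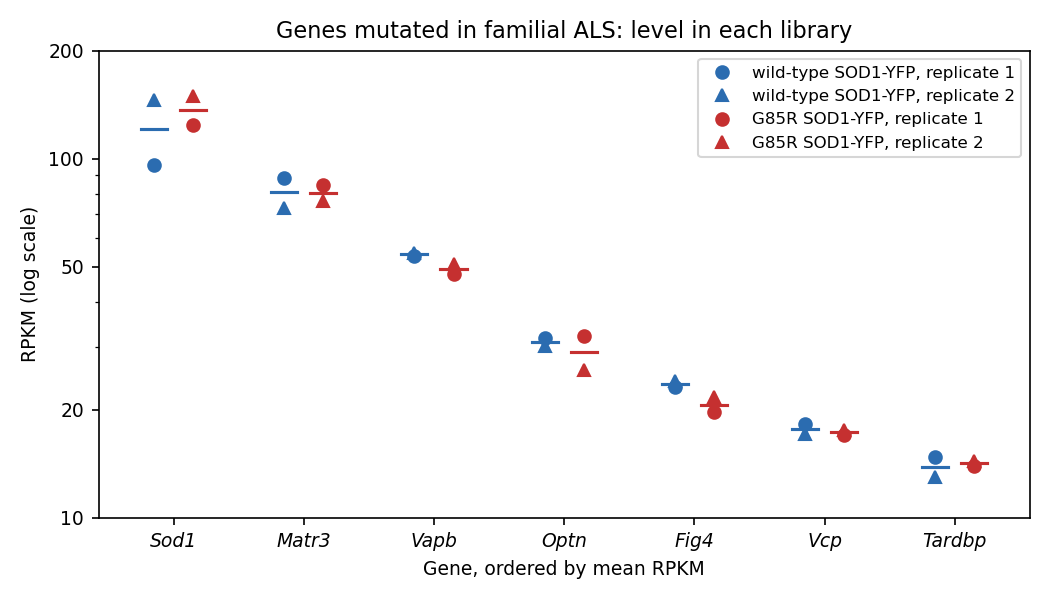
RPKM on a log scale of each gene in the 4 libraries, blue for wild-type and red for G85R SOD1-YFP, circles for replicate 1 and triangles for replicate 2, with a line at the mean of each genotype. The genes run from Sod1 (96.3 to 150) to Tardbp (13.0 to 14.8), and the genotypes are apart in Vapb and Fig4 but overlap in the other 5 genes.

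With limma, 0 of the 7 genes had an adjusted p under 0.05, and 0 an unadjusted p under 0.05. Among all 11530 tested genes, those whose RPKM averaged 1 or more, 0.642% had an adjusted p under 0.05 (0.269% higher and 0.373% lower in G85R) and 11.0% an unadjusted one. The log-linear likelihood ratio test likewise gave 0 of 7 at either level, with a smallest raw p of 0.159, for Sod1, against 0.228% of all 27189 rows at an adjusted p under 0.05. That test treats rounded RPKM as counts, without a term for spread between animals, so its p depends on the unit of RPKM. The median log2 fold change was -0.03 over the 7 genes and -0.02 over all tested genes, and the median size of the change, regardless of sign, was 0.10 and 0.12. The intervals limit what these libraries could miss. Over the 7 genes they reached down to a fold change of 0.731, for Fig4, and up to 1.60, for Sod1. A two-sided exact permutation test on 1 gene, with 2 libraries in each group, could reach 0.333 at the lowest.

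**Figure D3:**
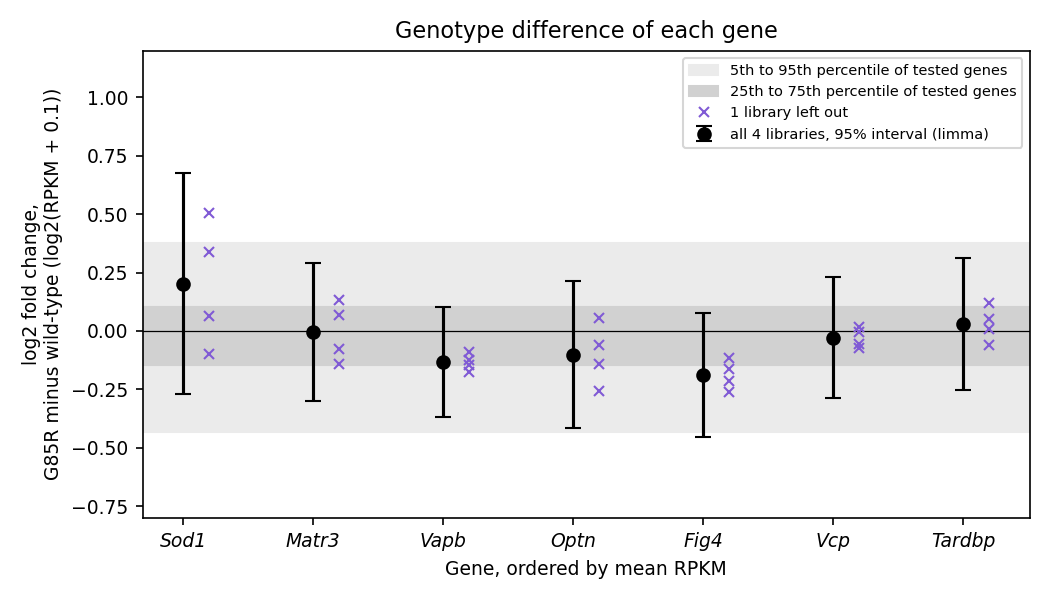
Log2 fold change of each gene (G85R minus wild-type, on log2(RPKM + 0.1)) from all 4 libraries with its 95% interval from limma (black), and from 3 libraries with 1 left out (crosses), over bands for the 5th to 95th (-0.43 to 0.38) and 25th to 75th (-0.14 to 0.10) percentile of the 11530 tested genes. Every interval includes 0, and Sod1 has the widest, from -0.27 to 0.68.

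The order of the levels was the same in every library, Sod1, Matr3, Vapb, Optn, Fig4, Vcp and Tardbp from high to low. The 4 values of each gene lay above all 4 values of the next gene in this order for each of the 6 neighboring pairs. Neighbors were closest for Vcp over Tardbp, with a mean ratio of 1.25 (1.22 to 1.31 in single libraries), and for Fig4 over Vcp, with 1.26 (1.16 to 1.40). Sod1 over Matr3 varied most, from 1.09 in wild-type replicate 1 to 2.00 in wild-type replicate 2. The exact sign-flip permutation test over the 4 libraries, two-sided, gave p = 0.125 for each pair, also after adjustment over the 6 pairs, which is the smallest p that 4 libraries allow. The order was taken from the means of the same libraries, so the test adds no support to it. All 7 genes lay above the median tested gene, whose mean RPKM was 10.1, from the 58.4th percentile for Tardbp to the 95.1st for Sod1. Whether the shared reads of Vcp, Sod1 and Tardbp bear on this order was not tested.

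The tested genes whose RPKM over the 4 libraries was most like that of each member, by the root mean square difference in log2(RPKM + 0.1), were Gpx1 for Sod1 (0.09), Nat14 for Tardbp (0.03), Mrpl34 for Vapb (0.02), Ipo13 for Optn (0.04), D5Ertd579e for Vcp (0.02), Med30 for Fig4 (0.03) and Psmc1 for Matr3 (0.02). Gpx1, a glutathione peroxidase, had RPKM of 106.9 and 145.2 (wild-type) and 116.8 and 147.3 (G85R). Like Sod1, it was lower in both replicates 1 than in both replicates 2. Gpx1 was picked for its likeness to Sod1 over these 4 libraries, so the shared pattern comes with the choice.

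To place the members among the genes they work with, 6 lists were formed by role, with 128 genes in all, of which 121 could be tested. In these lists 0 genes had an adjusted p under 0.05 with limma (smallest 0.314) and 5 an unadjusted p under 0.05, compared with 0.642% and 11.0% of all tested genes. With the log-linear test, whose p depends on the unit of RPKM and so on the level of a gene, 1 was called. This was Gabarapl1 (adjusted p = 0.0114 from the log-linear test), compared with 0.228% of all rows. List medians of the log2 fold change lay between -0.06 and 0.08. Genotypes did not overlap for 28.1% of the 121 tested role genes, compared with 41.2% of all tested genes.

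The 13 genes listed with Sod1 were for copper delivery and for removal of superoxide and peroxide, except for Mif, a cytokine. Of the 13, 2 were more abundant than Sod1, the peroxiredoxins Prdx5 and Prdx2, with a mean RPKM of 581 and 178. Sod2, the mitochondrial superoxide dismutase, had 46.0, and Sod1 was 2.23 to 3.19 times as high. Ccs, the chaperone that loads copper into Sod1, had an RPKM of 17.7 and 15.4 (wild-type) and 20.6 and 22.0 (G85R). Its 2 G85R values lay above its wild-type values, with a fold change of 1.29 and a 95% interval of 1.06 to 1.57, but the adjusted p was 0.337 (limma). Slc31a1, the copper importer of the plasma membrane, was the lowest of the genes without overlap, with a log2 fold change of -0.15 (adjusted p = 0.729 from limma). The median log2 fold change of the 13 genes was 0.08.

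Of the RNA-binding proteins listed, 21 were found in the table and 13 were more abundant than Tardbp, led by Raly and Elavl3 (mean RPKM 89.4 and 80.7). Hnrnpa1, a splicing repressor that binds TDP-43, had a mean RPKM of 2.61, and the listed RPKM of Tardbp was 4.60 to 7.85 times as high. Copies elsewhere in the genome were not searched for Hnrnpa1 or the other genes of the role lists. The effect of reads shared with such copies on their RPKM and on these ratios was not tested. Ptbp1, the splicing regulator that neurons replace by Ptbp2, had a mean of 0.856 and was not tested. None of the 19 tested genes had an unadjusted or adjusted p under 0.05 with limma, nor an adjusted one with the log-linear test. Of the 19, 1 lay higher in G85R without overlap, Tial1 (log2 fold change 0.07), and 1 lower, Atxn2 (-0.05). Among all tested genes these shares were 17.3% and 23.9%. The median of the list was 0.06.

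Vcp works through cofactors that choose its substrates. Ufd1l and Nploc4, which form the adaptor for ubiquitinated proteins, had a mean RPKM of 39.6 and 27.7, and Nsfl1c, the adaptor for membrane fusion, 32.5. Vcp was listed below each of them in every library, at 0.400 to 0.487 times Ufd1l, with the effect of the reads shared with its pseudogene not tested. Of the 27 cofactors found, all were tested, 15 exceeded Vcp, and the most abundant was the ubiquitin ligase Ube4b (94.0). With limma 0 had an unadjusted p under 0.05 or an adjusted one, and the largest differences without overlap were in Ubxd4 (log2 fold change 0.23, adjusted p = 0.601) and Ubxd7 (-0.33, adjusted p = 0.515), both UBX domain genes.

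Optn is 1 of several autophagy receptors. The receptor Sqstm1 had a mean RPKM of 502, with 491.3 to 510.4 over the 4 libraries, and Optn was 0.0506 to 0.0654 times as high. Tbk1, the kinase that activates Optn, had a mean of 25.4, and Optn was 1.12 to 1.24 times as high. Gabarapl1, a ubiquitin-like protein of the autophagosome membrane to which receptors bind, had 414.1 and 367.1 (wild-type) and 493.2 and 464.6 (G85R). Both G85R values lay above the wild-type values, with a fold change of 1.23 (95% interval 1.04 to 1.45, adjusted p = 0.350 from limma). Rnf11, which forms part of an inflammatory signaling complex with the Optn partner Tax1bp1, had 77.2 and 75.3 against 91.7 and 96.0, with a fold change of 1.23 (adjusted p = 0.314 from limma). Azi2 was the lowest of the genes without overlap (log2 fold change -0.15), and the median over 21 tested genes was -0.01.

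Among the contact-site proteins, the paralogue Vapa was the most abundant, with a mean RPKM of 109.5, and Vapb stood at 0.439 to 0.531 times Vapa in the single libraries. Vapa had a fold change of 0.950, with a 95% interval of 0.788 to 1.15 (adjusted p = 0.896 from limma). Of 20 lipid-transfer and contact-site genes, 3 exceeded Vapb. Osbpl3, an oxysterol-binding protein of low abundance, had 0.934 and 1.07 (wild-type) and 1.69 and 1.55 (G85R), a fold change of 1.56 (95% interval 1.09 to 2.24, adjusted p = 0.353 from limma). Its relative Osbpl6 was the lowest without overlap (log2 fold change -0.19), and the median of the list was -0.01.

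Vac14, the scaffold that holds Fig4, had a mean RPKM of 20.3, close to that of Fig4, with a ratio of Fig4 to Vac14 between 0.942 and 1.25. The lipid kinase of the complex, Pikfyve, is listed as Pip5k3 and had a mean of 2.55. Neither differed by more than 0.05 on the log2 scale, with 0.04 for Vac14 and -0.03 for Pip5k3. The 21 genes listed with Fig4 cover its complex and the turnover and binding of phosphoinositides. Of these, 17 had a negative log2 fold change, 7 of them with G85R below wild-type without overlap. In G85R, 1 lay above without overlap (Mtmr3, log2 fold change 0.07). Of all tested genes 54.7% had a negative log2 fold change, 23.9% had G85R below and 17.3% above wild-type without overlap, and the median of the list was -0.06. The lowest was the myotubularin phosphatase Mtmr7, with 34.7 and 32.7 (wild-type) and 28.6 and 27.9 (G85R), a fold change of 0.839 (95% interval 0.709 to 0.994, adjusted p = 0.437 from limma).

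**Figure D4:**
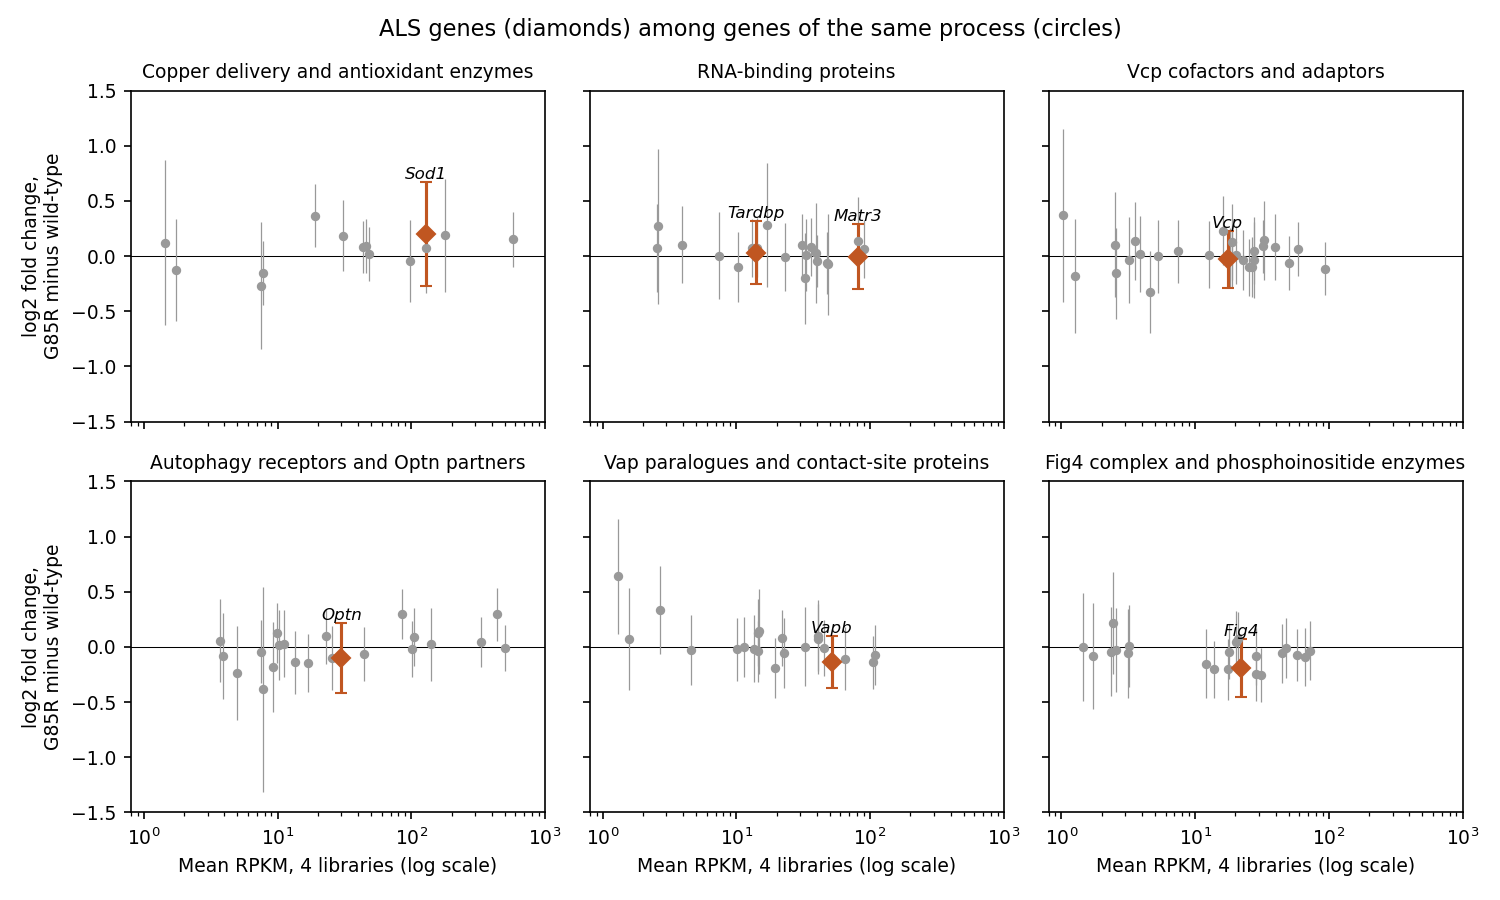
Log2 fold change (G85R minus wild-type, with 95% intervals from limma) against mean RPKM over the 4 libraries on a log scale, for the tested genes of 6 role lists (gray circles) and the ALS genes placed with them (orange diamonds). Of the 121 tested genes in the lists 0 had an adjusted p under 0.05, and Sqstm1 and Prdx5 mark the right-hand end of the levels with a mean RPKM of 502 and 581.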

How the data were processed

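The authors mapped the reads with Bowtie 0.12.3 (version from the submitters' processing notes) to mm9 and a splice junction database and quantified each UCSC gene cluster with Cufflinks. The deposited values are RPKM, with a second RPKM per gene to which the authors had added 1 read. Subtracting them gives the RPKM of 1 read (median over genes 0.0195 to 0.0226 in the libraries), from which reads were estimated. Cufflinks divides reads between isoforms, so these are not counts, and no counting intervals were computed.

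Genotypes were compared, 2 libraries against 2, with limma 3.58.1 in R 4.3.3 (eBayes, trend on) on log2(RPKM + 0.1), where fold changes of low genes are understated, for the 11530 rows with a mean RPKM of 1 or more, with Benjamini-Hochberg adjustment over them. The log-linear test was a Poisson model of the rounded RPKM with 1 read added, so its p depends on the unit of RPKM. Genotype and sample numbers came from the sample titles. The fit was tested on simulated data. Gene positions and transcripts are from GENCODE on NCBIM37, the mm9 assembly. Copies were searched with blastn from BLAST 2.17.0. Role genes were matched by symbol, or, for 14 entries, by a RefSeq synonym (GRCm38.p6 table). The members and lists were chosen with earlier results of these data known. Named were all members, named partners, called role genes, and the genes with the highest and lowest fold change without overlap in each list, and the gene most like each member. Raly, Elavl3, Prdx5, Prdx2, Sqstm1, Ube4b and Gabarapl1 were named after their values were seen. Alternatives were other pseudocounts, scalings, filters, eBayes settings, a replicate block, the log-linear test and leaving out each library. Some sequence and annotation detail is not reported here.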

Additional observations from a re-analysis of the deposited data

How the results depend on the processing

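In none of the 16 other settings of the test was any of the 7 genes called, with adjusted p from 0.271 to 1 (limma or log-linear test). With 1 library left out, where the lone library of a genotype is assumed to vary like the others, the log2 fold change ranged from -0.10 to 0.50 for Sod1, -0.060 to 0.12 for Tardbp, -0.26 to 0.056 for Optn, -0.074 to 0.017 for Vcp and -0.14 to 0.13 for Matr3, so that the sign of each turned. That of Matr3 also turned, to 0.018, after rescaling by the median ratio. Leaving out a library could not turn the sign of Vapb and Fig4, since their genotypes do not overlap. Of all tested genes 74 were called, but 39 after quantile normalization, 112 without a filter, 17 with a minimum mean RPKM of 5, 49 without an intensity trend, and 78 to 188 with 1 library left out, the highest without G85R replicate 2. With a replicate block it was 527, and the lowest adjusted p of the 7 genes was then 0.294, for Sod1. The labels do not say what equal replicate numbers share, and the difference between replicates correlated between genotypes with r = 0.22 across 11530 genes. Of the role genes 1 was called by the log-linear test. Each symbol had 1 row, so summing rows changed nothing, and the order of the 7 levels was the same after quantile normalization and with any 1 library left out, the latter chosen after seeing the data. The cause of these changes was not tested.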
